A study of Mus musculus with 9 samples.

Results

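The genes described here are 46 antioxidant genes of mouse, 25 glutathione transferases and 21 genes of glutathione metabolism, peroxide removal and the NRF2 response. They were taken by gene symbol from a table of 24493 genes. The rule uses no measured values, but it was set with earlier results of these data known. Of the 46, 40 reached 1 TPM (a transcript level per length, relative to the library total) in at least 3 of the 9 libraries and were tested. The 6 that did not were Gsta2, Gsta3, Gstm3, Gstm6, Gstp3 and Gstt4, and none of them exceeded 1.32 TPM in any library.

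The libraries are RNA-seq of mouse pancreatic tumor cells of C57BL/6 background, grown in culture in DMEM with serum and left untreated. Escape e2, escape e1 and parental cells have 3 libraries each, and the series describes the escape lines as immunotherapy-resistant derivatives of the parental line. Each escape group is a single line as far as the labels say, and nothing in them tells separate cultures from repeat libraries of the same culture. The p-values therefore measure only the spread between these libraries, which may be technical. TPM keeps no read depth: the number of reads behind a value is unknown, and no counting interval is given.

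Glutathione is a tripeptide thiol made from glutamate, cysteine and glycine, and it is the main soluble reductant of the cell. Glutathione peroxidases use it to reduce peroxides, transferases couple it to electrophiles, and glutathione reductase restores it with NADPH. NRF2, encoded by Nfe2l2, is the transcription factor that binds antioxidant response elements beside many of these genes; KEAP1 holds it for degradation until oxidants or electrophiles modify KEAP1. In pancreatic tumors NRF2 is known to support growth and survival under oxidative stress.

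To show where the element's core occurs beside these genes, 300-base windows from RefSeq (GRCm38.p6, 250 bases before to 50 after each gene start) were searched for TGACNNNGC on both strands. The first letters of this core are shared with the AP-1 site TGACTCA. The core occurred in 4071 of 32851 windows, 12.4%, and in 11 of 56 windows of the antioxidant genes, 19.6%. By gene, 11 of the 41 genes with a window held it, 26.8%, against 2664 of 17770 genes of the table, 15%. A match is a description of letters only, and no binding was measured. The 9 matches that lie before a start are printed in the direction of the gene, with the core in capitals. A core on the opposite strand reads GCNNNGTCA.
Nfe2l2, chr2:75704879-75704913, minus strand: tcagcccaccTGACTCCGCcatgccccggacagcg
Gclm, chr3:122245407-122245447, plus strand: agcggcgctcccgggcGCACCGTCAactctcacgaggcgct
Txnrd1, chr10:82859098-82859138, plus strand: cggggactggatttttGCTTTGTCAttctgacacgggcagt
Prdx1, chr4:116685450-116685490, plus strand: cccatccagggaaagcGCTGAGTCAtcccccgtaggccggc
G6pdx, chrX:74428913-74428953, minus strand: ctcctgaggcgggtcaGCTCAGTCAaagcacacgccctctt
Gsta3, chr1:21240448-21240488, plus strand: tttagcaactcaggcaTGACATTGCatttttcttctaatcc
Gstm5, chr3:107895796-107895836, plus strand: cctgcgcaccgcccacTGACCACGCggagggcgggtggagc
Gstm7, chr3:107931719-107931759, minus strand: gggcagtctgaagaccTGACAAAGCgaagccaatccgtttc
Mgst1, chr6:138140455-138140495, plus strand: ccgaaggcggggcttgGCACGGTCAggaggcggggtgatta
Srxn1 and Pgd held a match after a start. The Txnrd1 and Gstm7 matches precede a start that lies inside the gene (chr10:82833951-82897724 and chr3:107926334-107931877). Genes with the core went both ways in e2 against parental cells: G6pdx, Gstm7, Mgst1, Nfe2l2 and Srxn1 were higher, Gclm, Pgd and Prdx1 were lower, and Gstm5 and Txnrd1 were not called.

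The libraries were checked against markers before the results. Epithelial markers (Krt7, Krt8, Krt18, Krt19, Epcam, Cdh1, Muc1, Sox9 and Pdx1) summed to 1772.4 to 1842.7 TPM in e2, 1215.8 to 1262.4 TPM in e1 and 8342.8 to 9644.4 TPM in parental cells. Their means reached 1 TPM for 8 of the 9 in e2, 7 in e1 and 9 in parental cells. Fibroblast markers summed to 149.1 to 154.9 TPM in e2, 198.5 to 206.0 TPM in e1 and 0.637 to 0.934 TPM in parental cells; Lum was listed at 0 throughout, and Col3a1, Dcn and Pdgfrb were listed at 0 in parental cells. Of the leukocyte markers, summing to at most 5.91 TPM, Cd3e was listed at 0 in every library. The part of the epithelial and fibroblast genes in the antioxidant differences was not tested, and in bulk RNA fewer cells of a type and less RNA per cell cannot be told apart.

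One library stood apart. In e1 library 1, 8.19% of the genes tested lay more than 1.5-fold from the mean of the other e1 libraries, against 1.33 to 2.99% in the other 8 libraries. Of the 40 antioxidant genes tested, 11 lay beyond that fold in it, all of them below: Gsta1, Gsta4, Gstk1, Gstm1, Gstm7, Gsto2, Mgst1, Mgst2, Mgst3, Nqo1 and Hmox1. Values without it are given for the genes named below where it changes a call against parental cells.

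**Figure D1:**
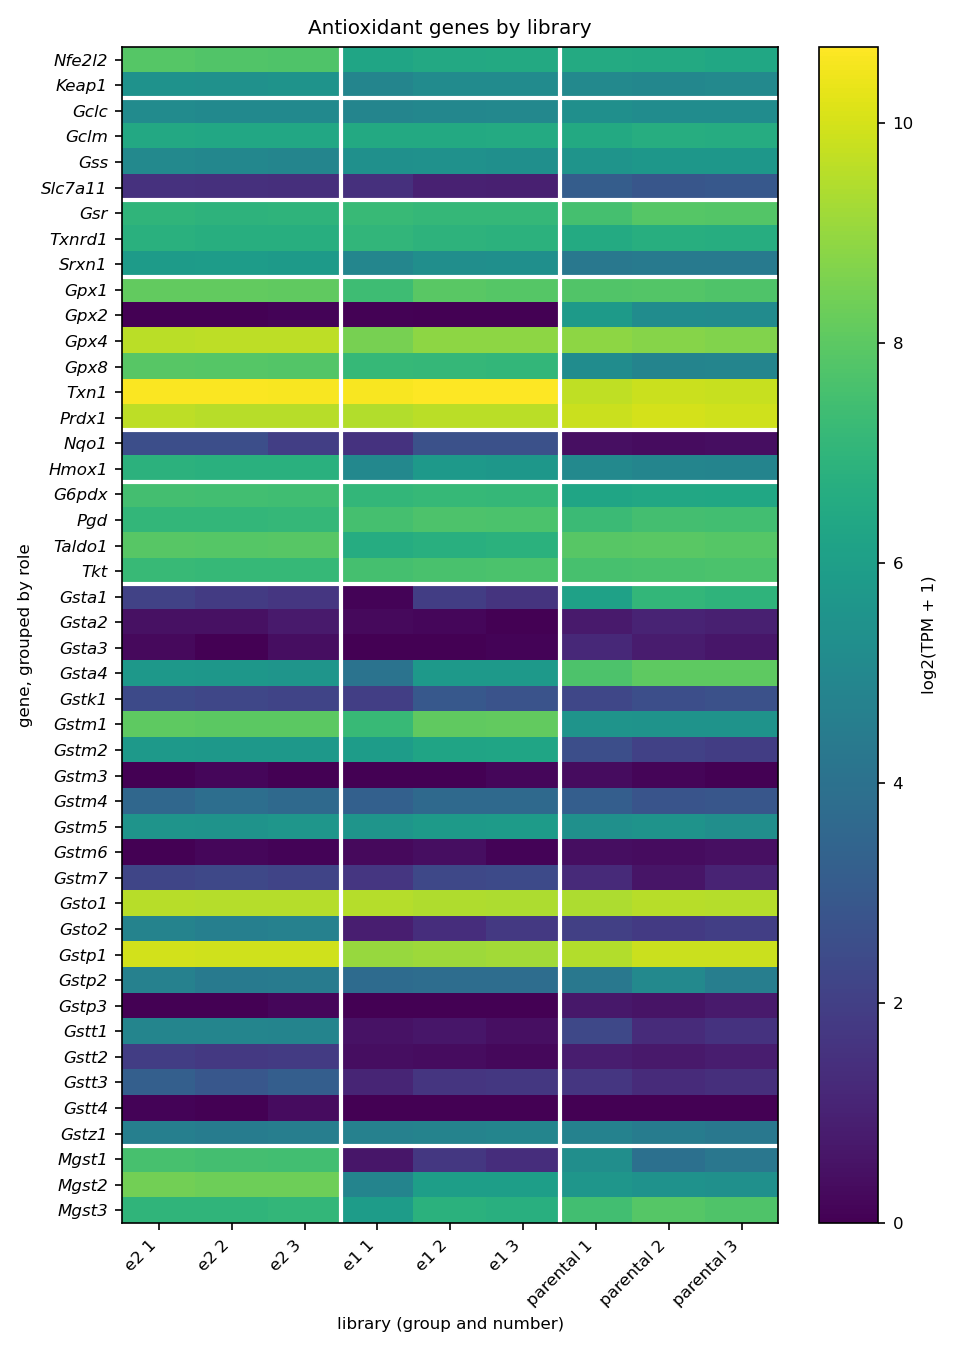
Levels of all 46 genes, as log2(TPM + 1), in each of the 9 libraries, with e2, e1 and parental libraries from left to right and white lines between roles. Gpx2 and Gsta1 are dark in the 6 escape libraries and bright in parental ones, while Mgst1 is bright in e2, dark in e1 and intermediate in parental libraries.

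Differences between groups are given as differences in log2(TPM + 1) ± SE, a scale that understates the change of low genes, and a gene was called at a limma adjusted p under 0.05 over all 12769 genes tested. Most of the transcriptome differed between these lines. At this threshold the antioxidant genes were called about as often as other genes against parental cells, and less often in e2 against e1. In e2 against parental cells 30 of the 40 genes passed, 19 higher and 11 lower, which is 75.0%, beside 73.5% of all genes tested (40.8% higher and 32.7% lower). In e1 against parental cells 30 of 40 passed, 14 higher and 16 lower, which is 75.0%, beside 70.6% of all genes (35.7% higher and 34.9% lower). In e2 against e1, 24 of 40 passed, 18 higher and 6 lower, which is 60.0%, beside 70.3% of all genes (40.6% higher and 29.7% lower). That last split depends on scaling: 16 were higher and 10 lower, 61.5% of calls higher against 75.0%, with median-ratio scaling or with the deposited rlog values. Over all genes the share of calls that were higher also fell, from 57.8% to 52.0% with median-ratio scaling and to 51.0% with rlog values. The median difference over the tested antioxidant genes was 0.26 in e2 and -0.03 in e1 against parental cells, beside 0.07 and 0.02 over all genes. For e2 against e1 it was 0.33, beside 0.09. Without e1 library 1, 34 of 40 passed in e2 and 34 in e1 against parental cells, and 26 in e2 against e1. Calls over all 12769 genes rose as well, from 9383 to 10246, from 9014 to 9695 and from 8981 to 9331 in the same order. Libraries of the groups compared did not overlap for 33 of 40 genes in e2 against parental cells, beside 81.4% of all genes tested. The same held for 28 of 40 in e1 against parental cells, beside 71.4%, and for 28 of 40 in e2 against e1, beside 76.5%. The comparisons with parental cells share the same 3 parental libraries, so the values of the lines are set side by side without a measure of likeness.

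Nfe2l2 mRNA was higher in e2 cells and did not differ detectably between e1 and parental cells. Nfe2l2 (chr2:75675513-75704663) stood at 230.0, 220.5 and 213.9 TPM in e2, 77.4, 86.9 and 90.2 TPM in e1, and 92.0, 88.8 and 82.5 TPM in parental libraries. All 3 e2 libraries lay above the other 6, and e1 and parental libraries overlapped. The difference of 1.33 ± 0.07 between e2 and parental cells had a limma adjusted p of 1.13e-07, that of 1.38 ± 0.07 between e2 and e1 one of 1.71e-07, and that of -0.05 ± 0.07 between e1 and parental cells one of 0.539. NRF2 is regulated largely at the protein level, which was not measured here. Keap1, encoding the adaptor that hands NRF2 to a ubiquitin ligase, had 42.3, 41.4 and 44.1 TPM in e2, 28.0, 34.3 and 34.9 TPM in e1, and 32.1, 29.6 and 31.5 TPM in parental libraries. It rose in e2 against parental cells by 0.44 ± 0.08 (adjusted p = 0.000931), without overlap, and e1 did not differ detectably (0.05 ± 0.08, adjusted p = 0.587). Without e1 library 1, Keap1 passed in e1 too (0.15 ± 0.05, adjusted p = 0.0225).

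Among 14 tested partners and regulators of NRF2, 11 passed in e2 against parental cells (6 higher, 5 lower), 10 in e1 against parental cells (4 and 6) and 11 in e2 against e1 (9 and 2). These are 78.6%, 71.4% and 78.6%, beside 73.5%, 70.6% and 70.3% of all genes tested. Sqstm1, whose product p62 sequesters KEAP1, averaged 678.3 ± 1.49 TPM in e2, 502.6 ± 79.4 TPM in e1 and 240.6 ± 29.7 TPM in parental cells (SD, n = 3 each). It rose in both lines against parental cells, by 1.5 ± 0.12 in e2 and 1.05 ± 0.12 in e1 (adjusted p = 2.1e-06 and 2.87e-05). Cul3, the ligase scaffold that works with KEAP1, averaged 82.1 TPM in e2, 42.1 TPM in e1 and 64.4 TPM in parental cells, rising by 0.35 ± 0.08 in e2 and falling by 0.60 in e1. Mafg, a small Maf partner of NRF2, rose by 0.54 ± 0.07 in e2 and 0.31 ± 0.07 in e1, while Maff, another small Maf, fell by 1.31 in e2 and by 1.79 in e1. Bach1, encoding a repressor that competes for the same elements, averaged 7.22 TPM in e2, 6.33 TPM in e1 and 7.83 TPM in parental cells, and it fell in e1 by 0.27 (adjusted p = 0.0122). In e2 it had a difference of -0.10 ± 0.08 (adjusted p = 0.261).

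Genes of cystine uptake and glutathione synthesis were lower or not called in both escape lines against parental cells. Slc7a11 (chr3:50364936-50499087), the cystine transporter of system xc-, had 1.84, 1.76 and 1.68 TPM in e2, 1.83, 0.988 and 0.916 TPM in e1, and 7.8, 6.28 and 6.69 TPM in parental libraries. Every escape library lay below every parental one. Slc7a11 fell by 1.52 in e2 (SE 0.15, adjusted p = 8.91e-06) and by 1.84 in e1 (SE 0.15, adjusted p = 2.39e-06). Its levels in e2 and e1 overlapped (0.32 ± 0.15, adjusted p = 0.0734), and without e1 library 1 e2 was higher (0.50 ± 0.09, adjusted p = 0.000812). Gss, glutathione synthetase, had 31.3, 30.3 and 28.5 TPM in e2, 40.5, 41.7 and 38.6 TPM in e1, and 45.8, 50.2 and 50.2 TPM in parental libraries. The 3 groups did not overlap, in the order e2 lowest and parental highest, with falls of 0.68 in e2 and 0.27 in e1 against parental cells (adjusted p = 5.51e-06 and 0.00303).

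Glutamate-cysteine ligase is the rate-limiting enzyme. Its catalytic subunit gene Gclc had 35.0, 32.9 and 32.4 TPM in e2, 28.3, 29.5 and 30.8 TPM in e1, and 38.7, 36.2 and 35.4 TPM in parental libraries. It fell in e1 by 0.31 (adjusted p = 0.00116) and had -0.13 ± 0.06 in e2 (adjusted p = 0.0656), a value that passed with median-ratio scaling at -0.22 (adjusted p = 0.0074) and without e1 library 1 (adjusted p = 0.0333). The modifier subunit gene Gclm, whose core match is printed above, had 86.5, 84.3 and 85.0 TPM in e2, 89.5, 89.6 and 90.5 TPM in e1, and 89.2, 100.9 and 96.2 TPM in parental libraries. Gclm fell by 0.16 in e2 (adjusted p = 0.0236), a call lost without e2 library 2 or 3 or without parental library 2 or 3 (adjusted p = 0.0744, 0.0673, 0.0829 and 0.069), and had -0.08 ± 0.05 in e1 (adjusted p = 0.192), which passed without parental library 1 at -0.13 (adjusted p = 0.0224).

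Of 21 tested genes of glutathione turnover and precursor supply, 15 passed in e2 against parental cells (7 higher, 8 lower), 12 in e1 against parental cells (5 and 7) and 16 in e2 against e1 (9 and 7). The shares were 71.4%, 57.1% and 76.2%, beside 73.5%, 70.6% and 70.3% of all genes. Cbs, which makes cystathionine on the way to cysteine, averaged 0.147 TPM in e2, 1.89 TPM in e1 and 8.43 TPM in parental cells, a fall of 3.01 in e2 and 1.68 in e1. Slc3a2, the heavy chain that partners the Slc7a11 product, fell by 0.67 in e2 (100.9 ± 2.9 TPM, against 161.5 ± 8.56 TPM in parental cells; SD, n = 3 each). In e1 it averaged 157.1 TPM, a difference of -0.05 ± 0.09 (adjusted p = 0.654), which without e1 library 1 was -0.15 (adjusted p = 0.0229). Chac1, a glutathione-degrading enzyme, fell in both lines, by 0.87 in e2 and by 1.40 in e1. Ggct rose in both lines, by 1.54 ± 0.07 in e2 and by 1.12 ± 0.07 in e1. Oplah, an oxoprolinase, averaged 14.7 TPM in e2, 3.65 TPM in e1 and 3.42 TPM in parental cells and rose in e2 by 1.84 ± 0.19. Ggt6, a member of the gamma-glutamyltransferase family, was listed at 0 in all 6 escape libraries and averaged 1.41 TPM in parental cells, through which alone it met the 1 TPM filter.

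The reductases did not move together. Gsr, glutathione reductase, had 125.8, 119.0 and 123.0 TPM in e2, 146.3, 136.7 and 137.8 TPM in e1, and 183.8, 234.7 and 224.3 TPM in parental libraries. It lay lower in every escape library, falling by 0.79 in e2 and by 0.60 in e1 (adjusted p = 2.02e-05 and 0.000153). Srxn1, sulfiredoxin, which repairs over-oxidized peroxiredoxins, went the other way, with 56.9, 59.4 and 56.1 TPM in e2, 28.6, 37.7 and 38.9 TPM in e1, and 18.4, 20.4 and 19.4 TPM in parental libraries. The 3 groups did not overlap, and the rises were 1.52 ± 0.11 in e2 and 0.81 ± 0.11 in e1 (adjusted p = 8.4e-07 and 8.16e-05). Txnrd1, cytosolic thioredoxin reductase, had 108.2, 103.7 and 102.4 TPM in e2, 130.2, 117.7 and 115.3 TPM in e1, and 90.4, 103.9 and 100.8 TPM in parental libraries. It rose in e1 by 0.30 ± 0.07 (adjusted p = 0.00344), and e2 overlapped parental cells (0.09 ± 0.07, adjusted p = 0.25).

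Glutathione peroxidase genes differed in direction: that of the epithelial enzyme Gpx2 was nearly absent, Gpx8 was several-fold higher in both lines and Gpx4 was higher in e2. Gpx2 (chr12:76792335-76795554), known from gut and other epithelia, had 0.0, 0.0 and 0.0822 TPM in e2, 0.0587, 0.0 and 0.0 TPM in e1, and 55.4, 35.5 and 34.2 TPM in parental libraries. It fell by 5.34 in e2 and fell by 5.35 in e1 (SE 0.16 each, adjusted p = 2.75e-09 and 2.77e-09). Gpx2 met the 1 TPM filter through its parental libraries only. The summed epithelial markers given above were lower in the same libraries, although Sox9 among them was higher in every escape library (39.2 to 43.6 TPM in e2, 15.4 to 20.3 TPM in e1 and 4.8 to 8.56 TPM in parental libraries); their part was not tested. Gpx8 (chr13:113042757-113046430), a peroxidase of the endoplasmic reticulum membrane, had 241.0, 235.0 and 224.1 TPM in e2, 142.9, 136.5 and 134.8 TPM in e1, and 35.8, 27.0 and 28.3 TPM in parental libraries. None of the 3 groups overlapped, and Gpx8 rose by 2.91 ± 0.09 in e2 and by 2.16 ± 0.09 in e1 (adjusted p = 4.36e-09 and 3.68e-08), with e2 above e1 by 0.75 ± 0.09 (adjusted p = 6.9e-05). The summed fibroblast markers were higher in the same escape libraries, although their sum was larger in e1 than in e2. Among them Dcn ran from 34.6 to 36.3 TPM in e2 and from 0.0897 to 0.227 TPM in e1, and Lum was listed at 0 throughout. The part of these markers was not tested either.

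Gpx4 (chr10:80047166-80056439), which reduces lipid hydroperoxides in membranes and restrains ferroptosis, had 767.9, 786.9 and 798.5 TPM in e2, 361.8, 463.5 and 465.3 TPM in e1, and 463.9, 430.0 and 410.2 TPM in parental libraries. It rose in e2 by 0.85 ± 0.09 (adjusted p = 2.34e-05), while e1 overlapped parental cells (-0.02 ± 0.09, adjusted p = 0.841). Of the 31-base words in Gpx4 transcripts, 38.9% also occur in other genes, nearly all in the pseudogene Gpx4-ps2, so its level could be split in the authors' counting. Gpx1, the abundant cytosolic peroxidase, had 277.6, 278.2 and 267.4 TPM in e2, 163.1, 250.2 and 231.4 TPM in e1, and 221.3, 229.3 and 215.2 TPM in parental libraries. Every e2 library lay above the rest, yet e2 against parental cells missed the threshold (0.30 ± 0.13, adjusted p = 0.0609) and passed without e1 library 1 or 2 (adjusted p = 0.000104 and 0.0337). For e1 against parental cells Gpx1 had -0.07 ± 0.13 (adjusted p = 0.657) and, without e1 library 1, 0.12 ± 0.05 (adjusted p = 0.0487), a change of sign that rests on that library. The 4 peroxidase genes together summed to 1286.5 to 1300.2 TPM in e2, 667.9 to 850.2 TPM in e1 and 688.0 to 776.5 TPM in parental libraries.

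Txn1 was higher and Prdx1 lower in both lines against parental cells. Txn1, thioredoxin, had 1596.4, 1567.8 and 1537.1 TPM in e2, 1518.5, 1642.3 and 1649.2 TPM in e1, and 813.5, 905.7 and 873.3 TPM in parental libraries. It rose by 0.86 ± 0.05 in e2 and 0.89 ± 0.05 in e1 (adjusted p = 3.03e-07 and 2.67e-07). Prdx1, a peroxiredoxin that thioredoxin recycles, had 782.5, 753.1 and 744.8 TPM in e2, 702.1, 771.3 and 773.7 TPM in e1, and 912.9, 1009.9 and 975.9 TPM in parental libraries. It lay lower in all 6 escape libraries and fell by 0.34 in e2 and by 0.37 in e1 (adjusted p = 0.000318 and 0.000221).

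**Figure D2:**
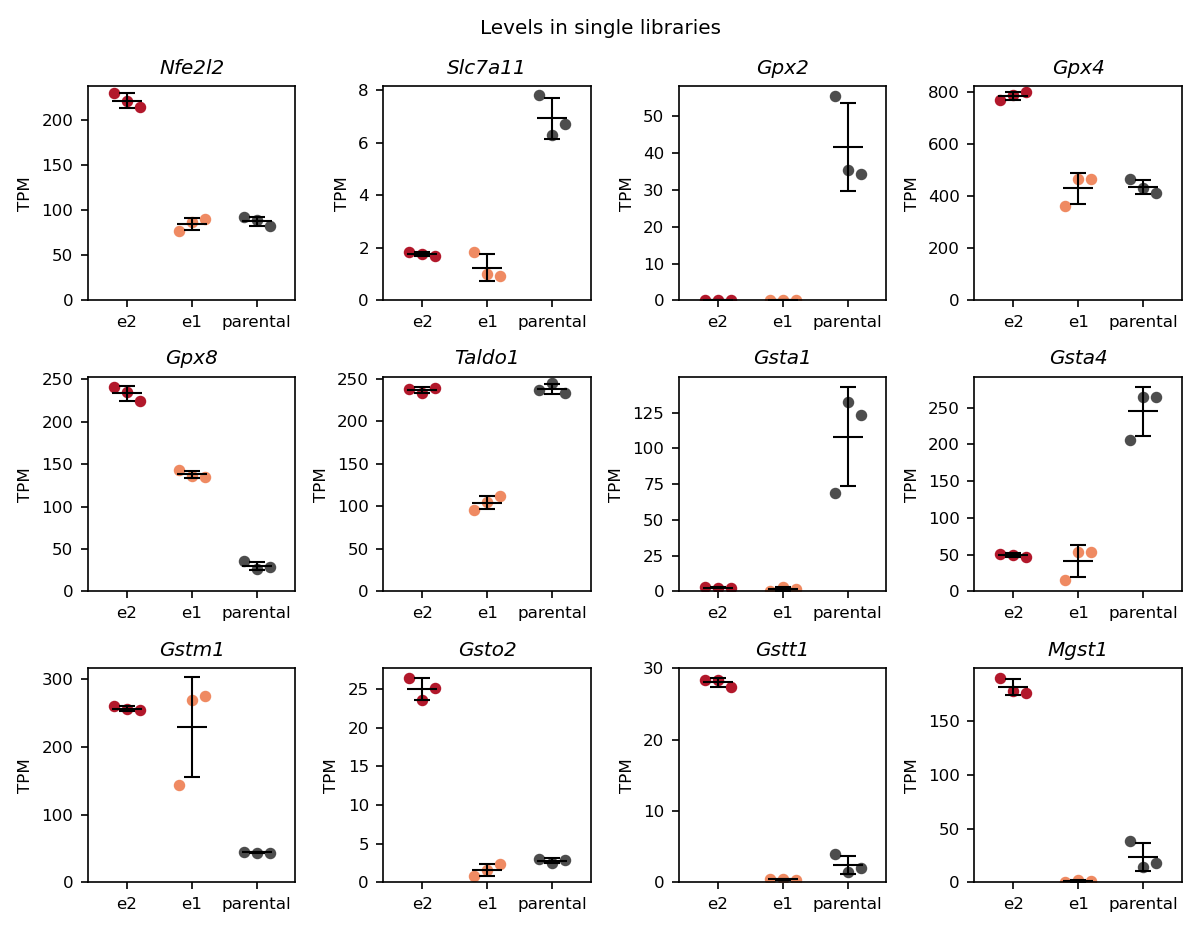
TPM in each library for 12 genes, with e2, e1 and parental groups from left to right; points are libraries, and bars the mean ± SD over 3. Gpx8 forms 3 separate levels, Gpx4 and Nfe2l2 are raised in e2, and Taldo1 is low in e1 alone among the 3 groups.

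Among 27 other thiol and peroxide enzymes, 20 passed in e2 against parental cells (10 higher, 10 lower), 17 in e1 against parental cells (12 and 5) and 19 in e2 against e1 (8 and 11). That is 74.1%, 63% and 70.4%, beside 73.5%, 70.6% and 70.3% of all genes. Sod3, the secreted superoxide dismutase, averaged 135.5 ± 1.81 TPM in e2, 14.6 ± 5.8 TPM in e1 and 6.89 ± 2.96 TPM in parental cells (SD, n = 3 each), and rose by 4.17 ± 0.33 in e2 (adjusted p = 7.44e-06). In e1 it passed at 0.97 ± 0.33 (adjusted p = 0.03), a call lost in 6 of 18 alternatives, among them those without e1 library 2 or 3 or parental library 2 or 3 (adjusted p = 0.105, 0.103, 0.0859 and 0.0944). Sod1, the cytosolic dismutase, fell by 0.79 in e2 (707.5 TPM, against 1223.9 TPM in parental cells) and by 0.21 in e1 (1060.7 TPM, adjusted p = 0.0294), a call in e1 that was lost without parental library 2 or 3 (adjusted p = 0.0997 and 0.0642) and with 2 groups in the fit (0.0695). Sod2, the mitochondrial dismutase, rose in e1 by 0.34 ± 0.07 and had 0.13 ± 0.07 in e2 (adjusted p = 0.113). Cat, catalase, rose in e1 by 0.41 ± 0.08 and had -0.18 ± 0.08 in e2 (adjusted p = 0.0652; without e1 library 1, 0.003). Prdx6, a peroxiredoxin that uses glutathione, averaged 80.7 TPM in e2, 176.1 TPM in e1 and 109.3 TPM in parental cells; it fell in e2 by 0.43 and rose in e1 by 0.68 ± 0.08. Gpx3, the secreted peroxidase, averaged 4.18 TPM in e2, 0.494 TPM in e1 and 0.545 TPM in parental cells, a rise of 1.75 ± 0.08 in e2. It met the 1 TPM filter through its e2 libraries only.

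Several glutathione peroxidases and thioredoxin reductases are selenoproteins. Of 10 genes of selenoprotein synthesis, 6 passed in e2 against parental cells (2 higher, 4 lower), 8 in e1 against parental cells (2 and 6) and 8 in e2 against e1 (5 and 3), beside 73.5%, 70.6% and 70.3% of all genes in these comparisons. Sephs2, which makes selenophosphate, averaged 62.0 TPM in e2, 72.4 TPM in e1 and 149.9 TPM in parental cells, falling by 1.26 in e2 and by 1.04 in e1 (adjusted p = 4.21e-07 and 1.74e-06). Secisbp2, which binds the element in selenoprotein mRNAs that recodes UGA, rose in e2 by 0.39 ± 0.08 and had -0.14 ± 0.08 in e1 (adjusted p = 0.167; without parental library 1, -0.22 and 0.0107).

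Nqo1 and Hmox1, both widely used readouts of NRF2, were higher in the escape lines, from different starting levels. Nqo1, a quinone reductase, had 4.99, 4.91 and 3.01 TPM in e2, 1.93, 5.2 and 5.24 TPM in e1, and 0.344, 0.29 and 0.307 TPM in parental libraries. It rose by 1.99 ± 0.28 in e2 and by 1.88 ± 0.28 in e1 (adjusted p = 0.000126 and 0.000197), and it stayed among the lower genes in every group. Nqo1 met the 1 TPM filter through its escape libraries only, and its parental levels lie under that filter. Hmox1, heme oxygenase, had 117.3, 110.2 and 110.8 TPM in e2, 31, 52.6 and 49.6 TPM in e1, and 32.0, 28.5 and 26.9 TPM in parental libraries. In e2 it rose by 1.92 ± 0.17 without overlap (adjusted p = 4.58e-06). In e1 the rise was 0.56 ± 0.17 (adjusted p = 0.014), with e1 library 1 inside the parental range. Without e1 library 1 it was 0.79 ± 0.07 (adjusted p = 4.92e-06), and without e1 library 2 or 3 the call was lost (adjusted p = 0.0501 and 0.0505).

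Further NRF2 target genes were mixed: of 28 tested, 23 passed in e2 against parental cells (14 higher, 9 lower), 20 in e1 against parental cells (9 and 11) and 21 in e2 against e1 (13 and 8). Called genes made up 82.1%, 71.4% and 75.0% of the list, beside 73.5%, 70.6% and 70.3% of all genes. Several that handle heme and iron rose in both lines, while Blvra, biliverdin reductase A, fell in e2 by 0.34 and was not called in e1 (-0.04, adjusted p = 0.584). Fth1, the ferritin heavy chain, averaged 6586.4 ± 56.8 TPM in e2, 2750.4 ± 634.0 TPM in e1 and 1821.7 ± 35.9 TPM in parental cells (SD, n = 3 each), a rise of 1.85 ± 0.14 in e2 and 0.57 ± 0.14 in e1. Ftl1, the light chain, rose by 0.80 ± 0.16 in e2 and by 0.54 ± 0.16 in e1. Pseudogene copies of the ferritin genes, which could take or give reads, were not assessed here. Blvrb, biliverdin reductase B, rose by 2.0 ± 0.13 in e2 and by 1.51 ± 0.13 in e1. Slc48a1, a heme transporter of endosomes and lysosomes, rose by 1.92 ± 0.13 in e2 and by 1.48 ± 0.13 in e1. Other targets fell in both lines. Osgin1 averaged 9.52 TPM in e2, 25.8 TPM in e1 and 108.7 TPM in parental cells, and fell by 3.38 in e2 and by 2.03 in e1 (adjusted p = 2.22e-09 and 7.38e-08). Me1, the cytosolic malic enzyme that makes NADPH, averaged 61.1 TPM in e2, 101.0 TPM in e1 and 235.9 TPM in parental cells, and fell by 1.93 in e2 and by 1.21 in e1. Cbr1, a carbonyl reductase, fell by 2.89 in e2 and by 1.20 in e1. Abcc1, an exporter of glutathione conjugates, rose in e1 by 0.76 ± 0.10 and had -0.16 ± 0.10 in e2 (adjusted p = 0.165; without e1 library 1, 0.00264).

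The pentose phosphate pathway, a main source of the NADPH that glutathione reductase uses, differed enzyme by enzyme. G6pdx (chrX:74409483-74428880), its first and rate-limiting enzyme, had 177.8, 174.3 and 170.9 TPM in e2, 134.9, 141.9 and 139.2 TPM in e1, and 77.2, 84.1 and 81.6 TPM in parental libraries. The 3 groups were separate, and G6pdx rose by 1.10 ± 0.05 in e2 and by 0.77 ± 0.05 in e1 (adjusted p = 4.19e-08 and 5.83e-07). Pgd, the next dehydrogenase, had 135.4, 133.5 and 136.2 TPM in e2, 184.6, 207.4 and 200.1 TPM in e1, and 157.3, 177.4 and 173.2 TPM in parental libraries. It fell by 0.32 in e2 and rose by 0.22 ± 0.06 in e1 (adjusted p = 0.00108 and 0.0102), and e2 was lower than e1 (-0.54 ± 0.06, adjusted p = 3.84e-05).

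In the non-oxidative branch, Taldo1 (chr7:141392160-141402976), transaldolase, had 238.6, 232.9 and 239.2 TPM in e2, 96.1, 105.5 and 112.1 TPM in e1, and 236.7, 244.8 and 233.9 TPM in parental libraries. The e1 libraries lay below all others, a fall of 1.18 against parental cells (SE 0.06, adjusted p = 1e-07), and e2 overlapped parental cells (-0.01 ± 0.06, adjusted p = 0.896). Tkt, transketolase, had 144.6, 142.5 and 143.6 TPM in e2, 187.3, 195.4 and 201.4 TPM in e1, and 188.0, 196.5 and 201.0 TPM in parental libraries. Tkt fell in e2 by 0.44 (adjusted p = 2.27e-05), e1 libraries spanned nearly the parental range (adjusted p = 0.948), and the test of e2 against e1 gave -0.44 ± 0.05 (adjusted p = 2.97e-05).

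Of 16 other NADPH-related genes, 13 passed in e2 against parental cells (6 higher, 7 lower), 9 in e1 against parental cells (2 and 7) and 14 in e2 against e1 (9 and 5). Their shares, 81.2%, 56.2% and 87.5%, stand beside 73.5%, 70.6% and 70.3% of all genes. Idh1, cytosolic isocitrate dehydrogenase, averaged 150.6 ± 2.88 TPM in e2, 38.4 ± 8.26 TPM in e1 and 129.7 ± 9.73 TPM in parental cells (SD, n = 3 each). It fell in e1 by 1.75 (adjusted p = 2.23e-06) and had 0.22 ± 0.14 in e2 (adjusted p = 0.179; without e1 library 1, 0.00426). Nnt, the mitochondrial transhydrogenase, rose in both lines, by 1.21 ± 0.08 in e2 and 0.82 ± 0.08 in e1. Rpia, ribose-5-phosphate isomerase, fell in both, by 1.64 in e2 and by 0.64 in e1. Aldh1l2, the mitochondrial formyltetrahydrofolate dehydrogenase, rose in e2 by 1.67 ± 0.11 and had 0.18 ± 0.11 in e1 (adjusted p = 0.181).

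Genes of ferroptosis and iron handling surround Gpx4 and Slc7a11. Of 18 tested, 15 passed in e2 against parental cells (7 higher, 8 lower), 12 in e1 against parental cells (5 and 7) and 11 in e2 against e1 (6 and 5). As shares, 83.3%, 66.7% and 61.1% were called, beside 73.5%, 70.6% and 70.3% of all genes. Steap3, an endosomal ferrireductase, averaged 29.0 ± 0.473 TPM in e2, 7.13 ± 0.55 TPM in e1 and 1.54 ± 0.11 TPM in parental cells (SD, n = 3 each), a rise of 3.56 ± 0.07 in e2 and of 1.68 ± 0.07 in e1. Slc40a1, the iron exporter ferroportin, fell by 3.08 in e2 and by 2.57 in e1 (2.72 TPM in e2, 4.68 TPM in e1 and 30.5 TPM in parental cells). Tfrc, the transferrin receptor, fell in e2 by 0.94 and had 0.26 ± 0.12 in e1 (adjusted p = 0.071; without e1 library 2 or 3, 0.0375 and 0.0331). Acsl4, which puts polyunsaturated fatty acids into membrane lipids and favours ferroptosis, fell by 0.40 in e2 and by 0.87 in e1. Aifm2, the ferroptosis suppressor FSP1, rose in e2 by 0.51 ± 0.14 and had -0.10 ± 0.14 in e1 (adjusted p = 0.545). Gch1, the first enzyme of tetrahydrobiopterin synthesis, averaged 12.1 TPM in e2, 0.942 TPM in e1 and 7.24 TPM in parental cells, rising by 0.67 ± 0.10 in e2 and falling by 2.09 in e1.

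The glutathione transferases changed only partly by class. Both tested alpha genes fell in both lines, and the tested mu genes other than Gstm5 rose in both (Gstm5 was called in e1 and not in e2). The tested theta genes, Gsto2, Mgst1 and Mgst2 rose in e2, while Gsto1 was not called there and Mgst3 fell. Summed over 25 genes, transferases held 2836.7 to 2941.3 TPM in e2, 1646.9 to 1964 TPM in e1 and 2051.6 to 2494.6 TPM in parental libraries. The alpha class held 1.84% of that sum in e2, 2.24% in e1 and 15.2% in parental cells. The mu class held 12.9% in e2, 19.6% in e1 and 4.19% in parental cells, and the microsomal class 22.3% in e2, 7.72% in e1 and 11.8% in parental cells. The pi and omega classes were the most abundant throughout. These sums and shares are described without a test.

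**Figure D3:**
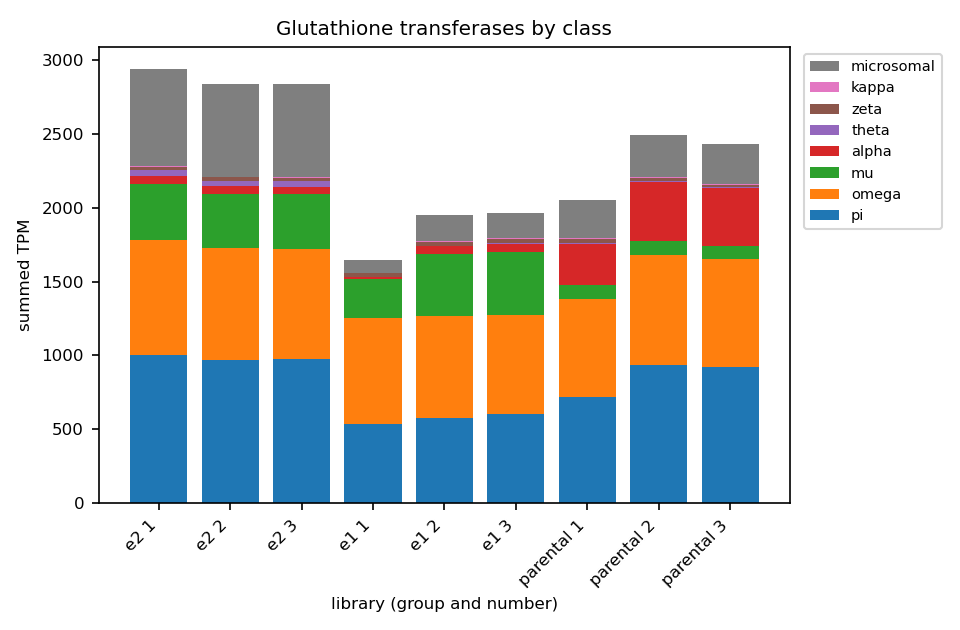
Summed TPM of the glutathione transferase genes in each library, stacked by class, with e2, e1 and parental libraries from left to right. The alpha segment is wide only in the parental bars among the 9, the mu segment is wide in the 6 escape bars, and the microsomal segment is widest in e2, at 627.5 to 659.5 TPM.

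Alpha-class enzymes conjugate lipid peroxidation products such as 4-hydroxynonenal and lie together on chromosome 9, apart from Gsta3. Gsta4 (chr9:78191966-78209349), specialised for that substrate, had 51.6, 50.1 and 47.0 TPM in e2, 15.9, 53.6 and 53.7 TPM in e1, and 205.9, 264.3 and 264.5 TPM in parental libraries. Every escape library lay below every parental one, with falls of 2.27 in e2 and 2.72 in e1 (SE 0.43 each, adjusted p = 0.00211 and 0.000852); without e1 library 1 the fall in e1 was 2.16 (adjusted p = 5.9e-08). Gsta1 (chr9:78230669-78242683) had 3.33, 2.59 and 2.26 TPM in e2, 0.0643, 2.79 and 2.01 TPM in e1, and 68.6, 132.4 and 123.5 TPM in parental libraries. It fell by 4.82 in e2 and by 5.51 in e1 (SE 0.48 each, adjusted p = 4.16e-05 and 2.01e-05), again without overlap. Gsta1 and its neighbour Gm3776 are near-identical copies, with 80.3% of the 31-base words of Gsta1 shared, so their levels are uncertain one against the other. Gm3776 averaged 3.77 TPM in e2, 1.18 TPM in e1 and 100.7 TPM in parental cells and fell by 4.36 in e2 and by 5.61 in e1. The stretch before each start is shown because the copies extend into it: over 237 aligned bases (RefSeq, GRCm38.p6, plus strand) 236 are identical, and the capital marks the 1 position that differs.
Gsta1, chr9:78230419-78230655: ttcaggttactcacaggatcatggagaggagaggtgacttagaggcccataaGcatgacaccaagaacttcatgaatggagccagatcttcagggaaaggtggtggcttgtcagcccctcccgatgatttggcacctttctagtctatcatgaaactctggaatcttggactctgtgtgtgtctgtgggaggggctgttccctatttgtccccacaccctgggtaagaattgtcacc
Gm3776, chr9:78256892-78257128: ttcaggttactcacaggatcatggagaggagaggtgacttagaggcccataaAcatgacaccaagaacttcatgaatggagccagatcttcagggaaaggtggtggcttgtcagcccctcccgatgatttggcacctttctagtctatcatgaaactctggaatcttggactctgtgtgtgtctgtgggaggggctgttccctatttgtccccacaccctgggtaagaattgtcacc

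Mu-class genes form a cluster on chromosome 3, and 4 of the 5 tested rose in e2 and all 5 in e1 against parental cells. Gstm1 (chr3:108012250-108017973), the leading member, had 260.7, 255.9 and 253.9 TPM in e2, 144.3, 270.0 and 274.7 TPM in e1, and 45.6, 43.8 and 43.7 TPM in parental libraries. It rose by 2.51 ± 0.21 in e2 and 2.29 ± 0.21 in e1 (adjusted p = 3.72e-06 and 7.79e-06), the lowest escape library being well above the highest parental one. Gstm2 (chr3:107981702-107986420) had 54.3, 51.3 and 51.7 TPM in e2, 59.8, 75.5 and 77.6 TPM in e1, and 4.86, 3.23 and 2.85 TPM in parental libraries. This was the largest rise of any antioxidant gene in e1, 3.97 ± 0.15, and in e2 as well, 3.55 ± 0.15 (adjusted p = 1.41e-08 and 2.74e-08). Transcript words shared with other genes made up 28.8% for Gstm1, mostly with the pseudogene Gstm2-ps1, and 12.2% for Gstm2. Gstm4 had 10.9, 13.6 and 11.7 TPM in e2, 8.82, 11.7 and 11.7 TPM in e1, and 8.11, 5.85 and 6.36 TPM in parental libraries. Its rises, 0.76 ± 0.14 in e2 and 0.60 ± 0.14 in e1 (adjusted p = 0.000852 and 0.00373), were smaller.

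The other mu genes stood on either side of Gstm4 in size of change. Gstm5 had 45.2, 43.5 and 48.0 TPM in e2, 46.9, 55.1 and 57.4 TPM in e1, and 39.7, 43.5 and 37.8 TPM in parental libraries. It rose in e1 by 0.39 ± 0.09 (adjusted p = 0.00261) and in e2 had 0.17 ± 0.09 (adjusted p = 0.0924), with touching ranges; without e1 library 1 it passed in e2 too (adjusted p = 0.0223). Gstm7 stayed at or below 4.35 TPM and rose by 1.25 ± 0.21 in e2 and 1.15 ± 0.21 in e1. Gstm3 and Gstm6 did not exceed 0.362 TPM in any library.

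Pi-class genes were lower in e1. Gstp1 (chr19:4035411-4037912), the most abundant transferase by its mean in e2 and parental cells, had 979.5, 951.5 and 953.3 TPM in e2, 519.8, 564.3 and 588.2 TPM in e1, and 700.6, 899.9 and 898.4 TPM in parental libraries. It fell in e1 by 0.57 (adjusted p = 0.000386). All 3 e2 libraries lay above the parental ones, but the difference of 0.22 ± 0.09 missed the threshold (adjusted p = 0.0595) and passed without parental library 2 or 3 (adjusted p = 0.0371 and 0.0385) or without e1 library 1 (0.0467). Gstp2 had 24.8, 20.4 and 21 TPM in e2, 12.4, 13.1 and 13.2 TPM in e1, and 18.7, 31.9 and 22.9 TPM in parental libraries, a fall of 0.84 in e1 (adjusted p = 0.00103). Gstp1 and Gstp2 share much of their sequence (38.5% of the words of Gstp1 and 54.8% of those of Gstp2), so counts could be split between them.

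Of the omega genes, which reduce thiols and dehydroascorbate, Gsto1 was level across the lines and Gsto2 was not. Gsto1 had 753.6, 729.4 and 722.0 TPM in e2, 718.7, 687.4 and 670.1 TPM in e1, and 656.2, 744.8 and 725.6 TPM in parental libraries. It missed the threshold in all 3 comparisons, at 0.05 ± 0.06 in e2 and -0.03 ± 0.06 in e1 against parental cells (adjusted p = 0.394 and 0.611). Gsto2 (chr19:47865438-47886308), the next gene on the chromosome, had 26.4, 23.6 and 25.1 TPM in e2, 0.868, 1.66 and 2.38 TPM in e1, and 3.02, 2.48 and 2.94 TPM in parental libraries. It rose by 2.77 ± 0.18 in e2 (adjusted p = 5.67e-07) and fell by 0.57 in e1 (adjusted p = 0.0182); the fall was lost without parental library 1 or 3 (adjusted p = 0.0623 and 0.0526). Neither gene shares transcript words with other genes, whereas Prdx1, Taldo1 and G6pdx share 15.2%, 14% and 12.6% of theirs.

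Theta-class genes, neighbours on chromosome 10, were highest in e2. Gstt1 (chr10:75783813-75798584) had 28.4, 28.3 and 27.3 TPM in e2, 0.425, 0.545 and 0.343 TPM in e1, and 3.94, 1.47 and 1.97 TPM in parental libraries. The 3 groups were separate: Gstt1 rose by 3.13 ± 0.21 in e2, fell by 1.21 in e1 and was higher in e2 than in e1 by 4.34 ± 0.21 (adjusted p = 6.91e-07, 0.000613 and 1.36e-07). Gstt2 and Gstt3 were lower in level, at most 8.35 TPM. Gstt2 rose by 1.04 ± 0.08 in e2 and fell by 0.50 in e1 (adjusted p = 1.94e-06 and 0.000386). It met the 1 TPM filter through its e2 libraries only. The fall in e1 compares levels under that filter, 0.185 to 0.305 TPM in e1 and 0.67 to 0.826 TPM in parental libraries. Gstt3 rose by 1.62 ± 0.18 in e2 and had -0.01 ± 0.18 in e1 (adjusted p = 2.1e-05 and 0.958). Gstt4 was listed at 0 in every e1 and parental library.

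Zeta and kappa genes differed little. Gstz1, which isomerises maleylacetoacetate in tyrosine breakdown, had 23.4, 21.6 and 22.8 TPM in e2, 24.7, 26.5 and 28.2 TPM in e1, and 25.7, 21.6 and 18.2 TPM in parental libraries. It passed in e1 at 0.28 ± 0.11 (adjusted p = 0.0444), with overlap, and that call was lost in most alternatives. Gstk1, of mitochondria and peroxisomes, ran from 2.99 to 6.65 TPM and was not called in any comparison; without e1 library 1 it passed in e1 against parental cells (0.33 ± 0.12, adjusted p = 0.0349) and in e2 against e1 (-0.54 ± 0.12, adjusted p = 0.00313).

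Microsomal transferases are membrane proteins unrelated in sequence to the cytosolic classes, and Mgst1 among them gave the largest difference between the escape lines of the 40 genes tested. Mgst1 (chr6:138140527-138156755), which also reduces lipid hydroperoxides and whose first window holds the core printed above, had 189.8, 178.0 and 176.1 TPM in e2, 0.587, 2.35 and 1.64 TPM in e1, and 38.4, 14.6 and 17.9 TPM in parental libraries. The 3 groups did not overlap. Mgst1 rose by 3.01 ± 0.38 in e2 and fell by 3.23 in e1 (SE 0.38; adjusted p = 0.000152 and 0.000106), and e2 exceeded e1 by 6.24 ± 0.38 (adjusted p = 2.53e-06), a ratio of mean TPM of 119. Without e1 library 1 the fall in e1 was 2.93 (adjusted p = 0.000962).

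Mgst2 (chr3:51636912-51682675), which can also make leukotriene C4, had 344.3, 322.2 and 322.5 TPM in e2, 26.9, 62.3 and 63.0 TPM in e1, and 48.6, 42.4 and 39.7 TPM in parental libraries. It rose in e2 by 2.90 ± 0.29 (adjusted p = 2.72e-05). In e1 the difference was 0.12 ± 0.29 (adjusted p = 0.72), and without e1 library 1 it was 0.52 ± 0.08 (adjusted p = 0.000159). Mgst3 had 125.4, 127.2 and 135.3 TPM in e2, 59.6, 113.5 and 107.1 TPM in e1, and 172.3, 232.0 and 215.7 TPM in parental libraries. It fell in both lines, by 0.66 in e2 (adjusted p = 0.0224) and by 1.18 in e1 (adjusted p = 0.00107); in e1 the fall was 0.89 without e1 library 1 (adjusted p = 6.16e-05). In e2 it missed the threshold without e2 library 1 or 2 (adjusted p = 0.0561 and 0.0537) and without parental library 2 or 3 (0.072 and 0.063).

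**Figure D4:**
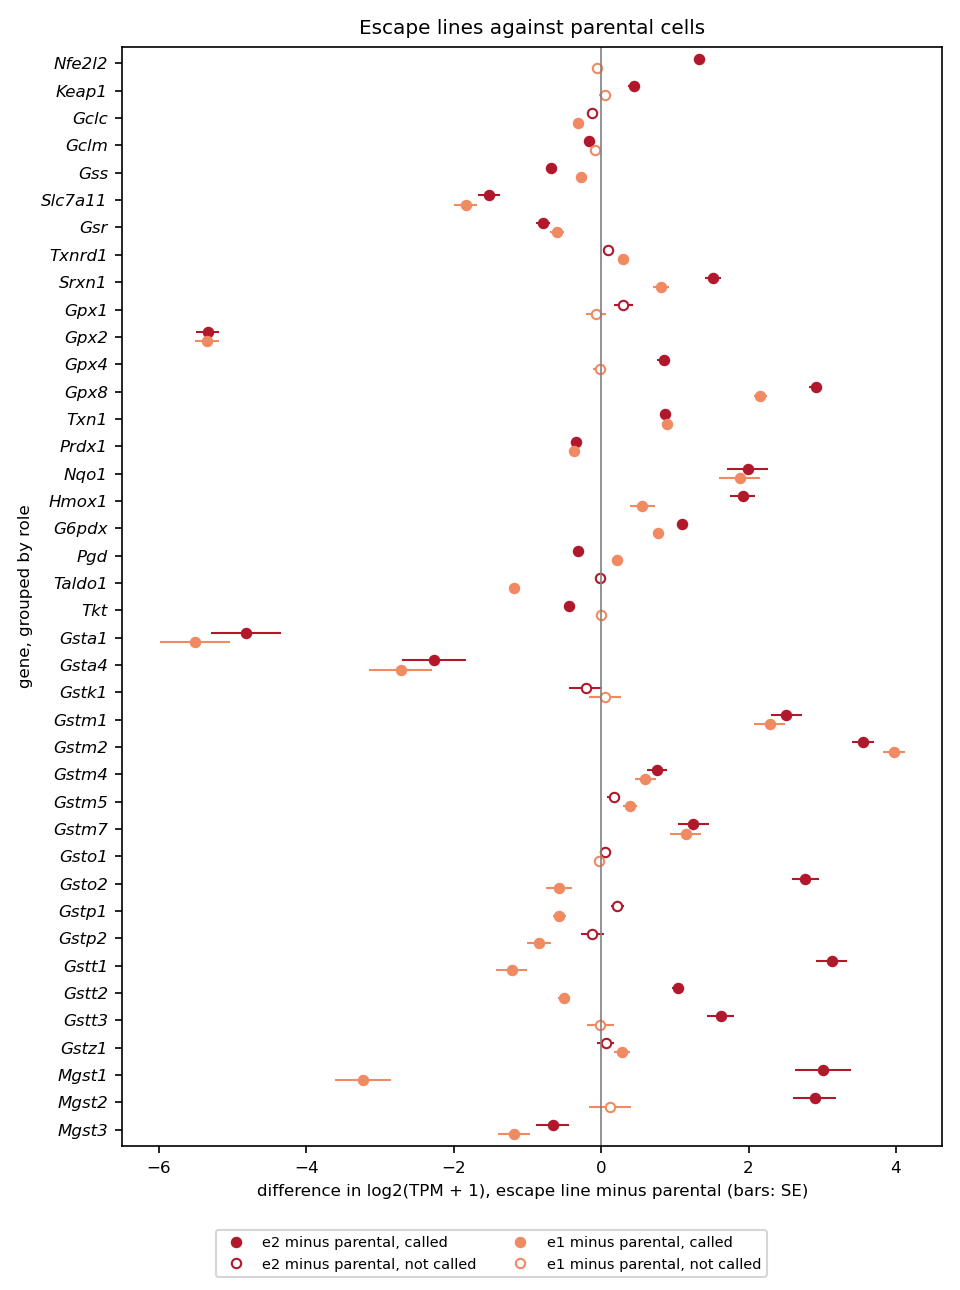
Differences in log2(TPM + 1) against parental cells for the 40 tested genes, e2 in dark red above e1 in orange, with SE bars; filled points were called and open points were not. Gpx2 and Gsta1 lie furthest left in both lines, Gstm2 furthest right, and the Mgst1 points lie on opposite sides of 0, at 3.01 and -3.23.

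Side by side, the calls fell into many patterns. Those with at least 4 genes are given here, with Pgd beside them. Gsta1, Gsta4, Mgst3, Gsr, Gpx2, Prdx1 and Slc7a11 were lower in both lines against parental cells and not called between the lines. Gstm1, Gstm4, Gstm7, Nqo1 and Txn1 were higher in both and not called between the lines. Gpx8, Hmox1, Srxn1 and G6pdx were higher in both and higher again in e2 than in e1. Nfe2l2, Keap1, Gpx4, Gstt3 and Mgst2 were higher in e2 than in either of the others, with no call in e1 against parental cells. Gstp1, Gstp2, Gclc and Taldo1 were lower in e1 than in either of the others, with no call in e2 against parental cells. For Gclc the call in e2 against e1 held in 12 of 18 alternatives. Median-ratio scaling and rlog values were among those that lost it (limma adjusted p = 0.19 and 0.269). Gsto2, Gstt1, Gstt2 and Mgst1 were higher in e2 and lower in e1, and Pgd was lower in e2 and higher in e1. Changes of at least 1 on the log2 scale among called genes numbered 19 of 40 in e2 and 13 of 40 in e1 against parental cells and 9 of 40 between the lines, beside 23.7%, 20.2% and 17.8% of all genes. In e2 against parental cells 15 of the 19 were higher and 4 lower (13.7% and 9.97% of all genes), and in e1 5 of the 13 were higher and 8 lower (7.91% and 12.3%). All 9 between the lines were higher in e2, beside 13.1% of all genes higher and 4.68% lower: Mgst1, Gstt1, Gsto2, Mgst2, Gstt3, Gstt2, Nfe2l2, Hmox1 and Taldo1.

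**Figure D5:**
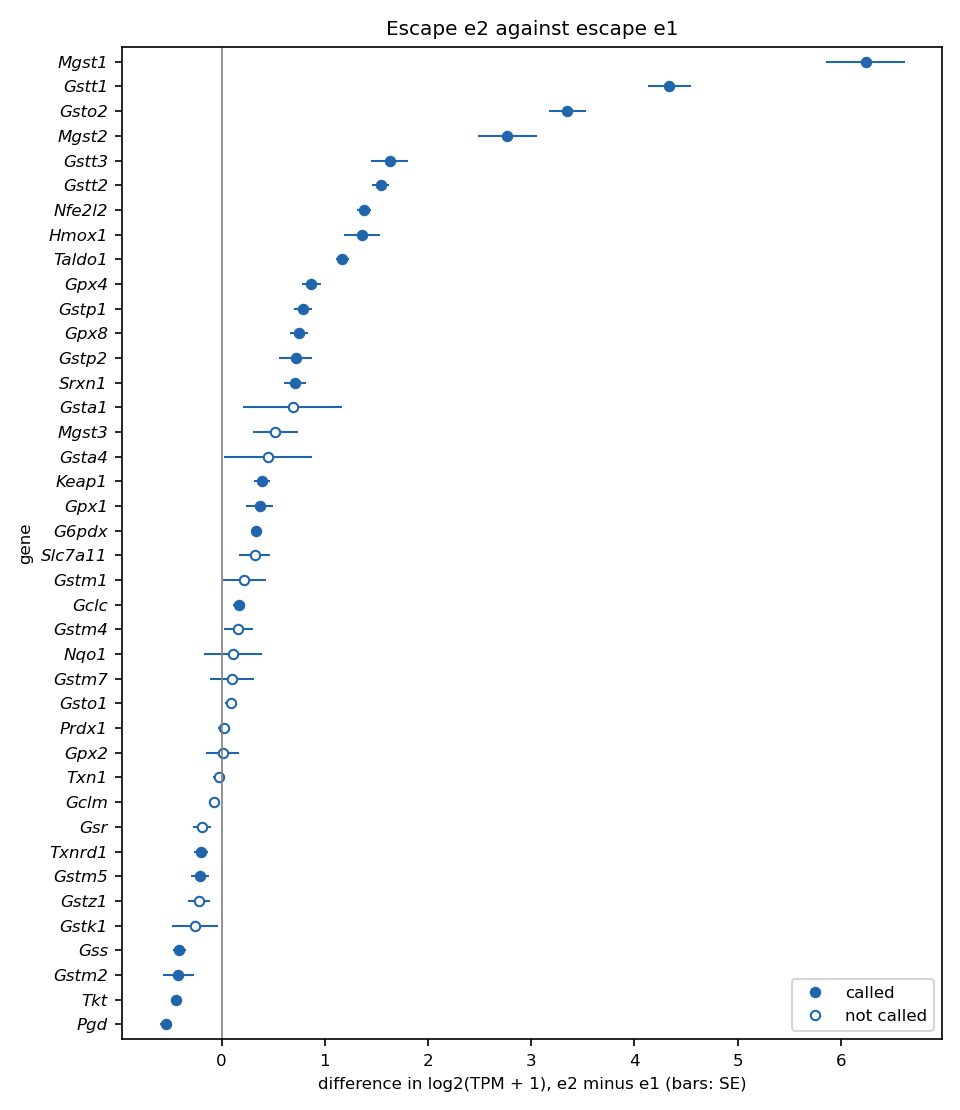
Differences in log2(TPM + 1) between e2 and e1 for the 40 tested genes in order of size, with SE bars; filled points were called. Mgst1 leads at 6.24, and the lowest is Pgd at -0.54.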

How the data were processed

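RNA-seq of 9 libraries was deposited as TPM per gene and, in a second table, as the authors' log2 values after the rlog transform. The submitters' processing notes name Salmon, DESeq2 and mm10, with no versions or roles; the annotation is not given in the sources used here. Tests used log2(TPM + 1), and a gene had to reach 1 TPM in at least 3 libraries to be tested, which 12769 of 24493 did. Group means were fitted over all 9 libraries in limma 3.58.1 (R 4.3.3) with trended, robust empirical Bayes; p-values are two-sided and Benjamini-Hochberg adjusted over these genes. On simulated data of 12769 genes limma recovered 65 of 67 changed by 0.5 on the log2 scale in e2 against parental cells. It recovered 66 of 67 in e1 against parental cells and 65 of 67 in e2 against e1. In the same order, 11, 7 and 6 of 12569 unchanged genes were called. The changed genes were drawn only from those above 5 TPM in parental cells, with normal noise at a spread smoothed over level. Few genes were changed, whereas most were called in the deposited data. Recovery for the antioxidant genes themselves was not tested, and several, such as Nqo1 and Gstt2, lie below that level in parental cells. In the deposited data the SE was 0.48 for Gsta1 and 0.43 for Gsta4 in each comparison.

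The antioxidant genes and the 7 further lists were chosen with earlier results of these data known. Values in every library are given for the 21 genes listed by symbol and for transferases averaging 10 TPM or more in some group; from each further list the text names genes among the 2 called with the largest change per direction and comparison and a fixed set named whatever their result. Gm3776, which shares its sequence with Gsta1, Blvra, and the neighbouring genes Chchd10, Mmp11, Mif, Eps8l3 and Cdk2ap2 were named after their values were seen. Coordinates are from RefSeq (GRCm38.p6). Sequence sharing counts 31-base words of GENCODE M21 transcripts. The alternatives changed the pseudocount to 0.1, the filter to none or 5 TPM, the scaling to median ratios, the input to rlog values or to TPM rescaled without the 10 highest genes, the fit to 2 groups, a replicate block or plain empirical Bayes, and left out each library in turn.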

Additional observations from a re-analysis of the deposited data

Results flagged for a closer look

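For 5 genes the difference from parental cells had opposite signs in the escape lines, and the difference between the lines, tested as e2 against e1, also passed. Mgst1 had 3.01 in e2 and -3.23 in e1 against parental cells, and 6.24 in e2 against e1. Gstt1 had 3.13 in e2 and -1.21 in e1, and 4.34 between the lines. Gstt2 had 1.04 in e2 and -0.5 in e1, and 1.54 between the lines, at levels of at most 2.86 TPM. Its e1 and parental libraries were all below the 1 TPM filter, which it met through e2 only. Gsto2 had 2.77 in e2 and -0.57 in e1, and 3.35 between the lines, and its fall in e1 was lost without parental library 1 or 3. Pgd had -0.32 in e2 and 0.22 in e1, and -0.54 between the lines. All are differences in log2(TPM + 1) with 3 libraries a group.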

How the results depend on the processing

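Under 18 alternatives the counts of called antioxidant genes stayed within 1.5 times: 27 to 34 in e2 against parental cells, 27 to 34 in e1 against parental cells and 19 to 26 in e2 against e1. The number tested was 40 except with the 5 TPM filter (37) and with no filter (46). Both counts of 27 came from the 5 TPM filter. Over all genes that filter called 7795, 7548 and 7630 of 10461 in the same order, and no filter called 10908, 10152 and 10038 of 19340. Leaving out each library gave 28 to 34, 28 to 34 and 19 to 26 antioxidant genes in the same order. Beside these, 8683 to 10246, 8348 to 9695 and 8198 to 9331 of all 12769 genes were called. With the library number as a replicate block the antioxidant counts were 31, 29 and 23, beside 9163, 8742 and 8740 of all 12769 genes. The labels do not say whether the library numbers pair the libraries. Deviations of same-numbered libraries correlated at -0.13 to 0.05, and those of differently numbered ones at -0.161 to 0.127. With 3 libraries a group these values cannot decide it. The block added the calls of Gstp1 in e2 against parental cells and of Mgst3 and Slc7a11 in e2 against e1, and it ended those of Gstz1 in e1 against parental cells and of Gclc, Gstm2 and Gstm5 in e2 against e1. No change of call occurred for 34, 32 and 27 of 40 genes, and those with one are Gstm5, Gstp1, Mgst3, Gclc, Gclm and Gpx1 in e2 against parental cells, and Gstk1, Gsto2, Gstz1, Mgst2, Keap1, Gclm, Gpx1 and Hmox1 in e1 against parental cells. In e2 against e1 they are Gstk1, Gstm2, Gstm5, Gsto1, Gstz1, Mgst3, Gclc, Gclm, Gsr, Gpx1, Txn1, Txnrd1 and Slc7a11. Gpx1 in e1 against parental cells turned its sign in 1 alternative and ran from -0.19 to 0.12 when libraries were left out; the cause was not tested. Depth cannot be recovered from TPM, so how far counting error limits low genes such as Gstt2 and Nqo1 is unknown.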

Other observations

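Genes within 100 kb of the transferase clusters were looked up after the data were seen. Beside the theta cluster on chromosome 10, Chchd10, a mitochondrial intermembrane protein gene, averaged 57.4 TPM in e2, 0.737 TPM in e1 and 10.8 TPM in parental cells. Its differences were 2.32 in e2 and -2.75 in e1 against parental cells and 5.07 in e2 against e1 (limma adjusted p = 1.07e-07, 3.76e-08 and 1.83e-09). The next gene, Mmp11, a matrix metalloprotease, averaged 18.4 TPM in e2, 3.38 TPM in e1 and 10.2 TPM in parental cells, with differences of 0.80 in e2 and -1.36 in e1 against parental cells and 2.17 in e2 against e1. Mif, between Gstt2 and these genes, had 0.20 in e2 and 0.35 in e1 against parental cells and -0.15 in e2 against e1. Beside the mu cluster on chromosome 3, Eps8l3 averaged 0.0821 TPM in e2, 0.0135 TPM in e1 and 20.1 TPM in parental cells, falling by 4.27 in e2 and by 4.36 in e1 while Gstm1 and Gstm2 rose. Eps8l3 met the 1 TPM filter through parental cells only. Around the pi cluster on chromosome 19, Cdk2ap2 averaged 269.7 TPM in e2, 121.5 TPM in e1 and 203.2 TPM in parental cells and was called higher in e2 and lower in e1.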
